A study of Mus musculus with 8 samples.

Results

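The liver RNA of a mouse model of non-alcoholic steatohepatitis (NASH) was compared with that of control mice, gene by gene. Of 45777 genes in the deposited table, 7470 reached 5 FPKM in at least 1 of the 2 libraries and were kept. FPKM counts sequenced fragments relative to transcript length and library size. The series holds 8 libraries, liver and colon of control mice, NASH mice and mice that received bovine colostrum vesicles (extracellular vesicles, EVs) at a lower or higher dose, here called EV low and EV high. Each group and tissue has 1 library, made from tissue total RNA. The labels name the tissue and the group only: strain, sex, diet, age, dose amounts, duration, hour of collection and pooling of animals are not given there. The design text of the series, not the labels, implies that mice receiving EVs had NASH. With 1 library a side there is no replicate error, so each value below describes these libraries and no test was run.

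The liver is built mainly of hepatocytes, which secrete most plasma proteins, clear hormones and drugs, and run amino acid, one-carbon and bile acid metabolism. In steatohepatitis, fat-laden hepatocytes come under stress, macrophages of resident and blood origin gather, and stellate cells lay down matrix. Many hepatocyte genes are driven by a small set of liver-enriched factors, among them HNF4A, C/EBP-alpha and several nuclear receptors, while stress, cytokines and myeloid cells bring in bZIP, NF-kappaB, PU.1 and IRF factors. The values that follow concern the factors first, then the classes of genes outside the best-known liver lists.

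The ratio used throughout is log2 of NASH over control, each with 1 FPKM added, less the median gene ratio. The median gene was 0.55 higher in the NASH library as deposited, so a gene of equal FPKM in both libraries stands near -0.55. A gene was called higher or lower at 2-fold, a log2 ratio of 1 or more from the median gene. On that scale 697 of the 7470 genes were higher (9.33%) and 726 lower (9.72%). As deposited, without the median subtracted, 1668 were higher (22.3%) and 316 lower (4.23%), so calls of "lower" of small size rest on the centring. The threshold also acts on direction. Of the genes kept, 2222 passed 5 FPKM in the NASH library only and 170 in the control library only, and by construction nearly all calls in those sets go one way. Among the 5078 genes at 5 FPKM or more in both libraries, 193 were higher (3.8%) and 591 lower (11.6%). These 5078 are called the both-library set below, and list counts in it carry more weight than those over all genes kept. Genes with 5 to 5.5 FPKM in the higher library had a median of 0.05 (380 genes), and those just below 5 FPKM, from 4.5 upward, a median of 0.10 (399 genes).

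**Figure D1:**
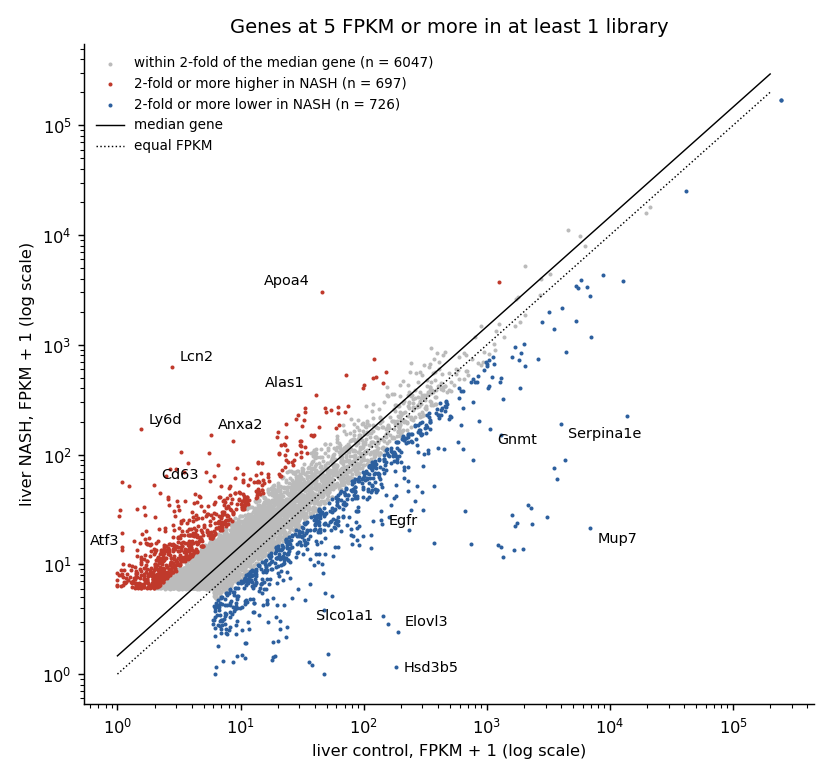
FPKM + 1 of each kept gene in the liver control library (x axis, log scale) and the liver NASH library (y axis, log scale), 1 point per gene. The solid line marks the median gene and the dotted line equal FPKM: 697 genes (red) lie at least 2-fold above the solid line and 726 (blue) at least 2-fold below, with Lcn2, Ly6d and Apoa4 highest and Mup7 and Hsd3b5 lowest.

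The tissue label was checked against markers. All 10 hepatocyte markers were found and the summed level of the list was 40994 FPKM in control and 28712 in NASH, with Alb at 19466 and 15732 FPKM. Kupffer cell markers summed to 181 FPKM in control and 840 in NASH, and recruited macrophage markers to 239 and 614. T and NK cell markers summed to 2.95 and 9.20 FPKM, and no member of that list reached 5 FPKM. Neutrophil markers went from 4.78 to 72.5 FPKM, with 5 of 11 at 0 in the control library and none at 0 in the NASH library. Stellate and fibroblast markers went from 113 to 418 FPKM and sinusoidal endothelial markers from 133 to 196. In tissue RNA, a change in the number of cells of a type and a change in RNA per cell cannot be told apart, and the share of each result below that moves with these marker levels was not tested. A handful of abundant small RNAs (the 7S RNAs, Rpph1, Rmrp) took 54.9% of all FPKM in control and 49.7% in NASH. The 100 most abundant nuclear protein-coding genes held 54.4% of nuclear coding FPKM in control and 39.9% in NASH.

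Transcription factors were mostly level, and most higher calls were in factors under 5 FPKM in control. In 10 lists of factors (279 genes, 132 kept), 23 were higher (17.4%, against 9.33% of all genes) and 7 lower (5.30%, against 9.72%), with a median of 0.18. Of these 132, 43 passed 5 FPKM in NASH only, where no lower call could occur. Among the 86 at 5 FPKM in both libraries, 5 were higher (5.81%, against 3.8%) and 4 lower (4.65%, against 11.6%). As deposited 43 were higher and 3 lower.

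The stress-induced bZIP factors made up the largest group of higher factors by count. Of 24 AP-1 and ATF factors kept, 6 were higher and none lower, and 13 of the 24 passed 5 FPKM in NASH only. None of the 11 at 5 FPKM in both libraries was called. Atf3, a repressor induced by stress and cytokines, was at 0.351 FPKM in control, 15.3 in NASH, 11.8 in EV low and 10.5 in EV high, a ratio of 3.04. Only the control library was below 10 FPKM. Jun, a subunit of AP-1, was at 3.50, 21.4, 14.7 and 13.2 FPKM in the same order (ratio 1.76). The small Maf proteins Maff (ratio 2.0) and Mafk (1.36) and the death-linked stress factor Ddit3 (1.53) were called as well, and Fos, the other AP-1 partner, stood at 1.10. Atf4, which drives Ddit3 in the integrated stress response, was level: 46.0 FPKM in control, 45.8 in NASH, a ratio of -0.56, and 38.4 and 37.3 in the EV libraries.

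The myeloid and inflammatory factors came next. Spi1, which encodes PU.1, the defining factor of macrophages, was at 1.43, 10.3, 7.88 and 7.17 FPKM in control, NASH, EV low and EV high (ratio 1.66). Irf8, its partner in myeloid cells, was at 1.5, 10.5, 7.33 and 6.54 FPKM (ratio 1.65). Both were lowest in the control library, and all 3 other libraries exceeded it more than 4-fold. Irf7, of the interferon response, stood at 1.36. In the NF-kappaB list 3 of 11 were higher and none lower, 6 of 11 passed in NASH only, and none of the 5 in the both-library set was called. The 3 were Tnfaip3, a brake on the pathway (1.65), the precursor Nfkb2 (1.35) and the kinase Ikbke (1.05). Zeb2, of macrophages and mesenchymal cells, stood at 1.30 and Klf6 at 2.27 (1.90, 19.6, 17.9 and 15.5 FPKM).

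Liver-enriched factors lay near the median gene or slightly below. Hnf4a, the main hepatocyte factor, was at 54.6 FPKM in control, 69.1 in NASH, 50.6 in EV low and 48.4 in EV high (ratio -0.22). Cebpa stood at -0.34 (43.3 and 50.4 FPKM) and Foxa3 at -0.16 (13.3 and 17.8 FPKM). Foxa2 stood at -0.56 (5.80 and 5.76 FPKM), and Prox1 at -0.25. None of the 6 forkhead factors kept was called. The hepatocyte markers Ttr and Serpina1a stood at -2.23 and -2.34, farther from the median gene than any of these factors. Ratios in that list of 10 markers ran from -2.34 to -0.11, with a median of -1.14, and 5 were within 2-fold.

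Of 49 nuclear receptors 22 were kept, and 19 of those were within 2-fold of the median gene. Pparg, an adipogenic receptor of low level in normal liver, was at 1.77, 9.38, 7.23 and 5.88 FPKM in control, NASH, EV low and EV high (ratio 1.35). Nr0b2, the small repressor SHP that bile acids induce through FXR, was at 31.2, 11.5, 17.8 and 10.2 FPKM (ratio -1.92), and the control library was the highest. Its inducer Nr1h4, which encodes FXR, stood at -0.35 and the xenobiotic receptors Nr1i2 and Nr1i3 at 0.57 and -0.38. Ppara, the fatty acid sensor, stood at 0.47 (25.4 and 52.7 FPKM), and Rxra, the shared partner, at 0.22. In the list of coregulators, Lpin2 and Lpin1, phosphatidate phosphatases that also act in the nucleus, were the only 2 of 14 called: Lpin2 stood at 1.76 (19.4 and 100 FPKM) and Lpin1 at 1.18.

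Factors of output rhythm differed in both directions. Dbp, a PAR-bZIP factor under direct clock control, was at 1.60, 38.1, 28.5 and 29.3 FPKM in control, NASH, EV low and EV high (ratio 3.36), and its relative Tef was at 8.11, 31.2, 27.1 and 27.2 (1.27). Nfil3, which competes for the same sites, was at 5.15, 2.98, 2.0 and 1.93 FPKM (ratio -1.18). Arntl, the positive arm of the clock, was at 5.53 FPKM in control and 0.816 in NASH (ratio -2.40). In each of these 4 genes the control library was on one side of all 3 others. The hour of collection is not given in the labels, so group and hour cannot be told apart here. In colon, Dbp was at 1.67 FPKM in control and 46.1 in NASH.

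Other factors lower in NASH were Hes6 (ratio -1.72), Mlxipl, the carbohydrate-sensing factor ChREBP (23.9 and 12.1 FPKM, ratio -1.48) and Klf12 (-1.08, the latter at 5.07 and 3.21 FPKM). Myc was at 0.386 FPKM in control and 5.14 in NASH (ratio 1.60), with 3.31 and 2.28 in the EV libraries. Its level in NASH was the highest of the 4.

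**Figure D2:**
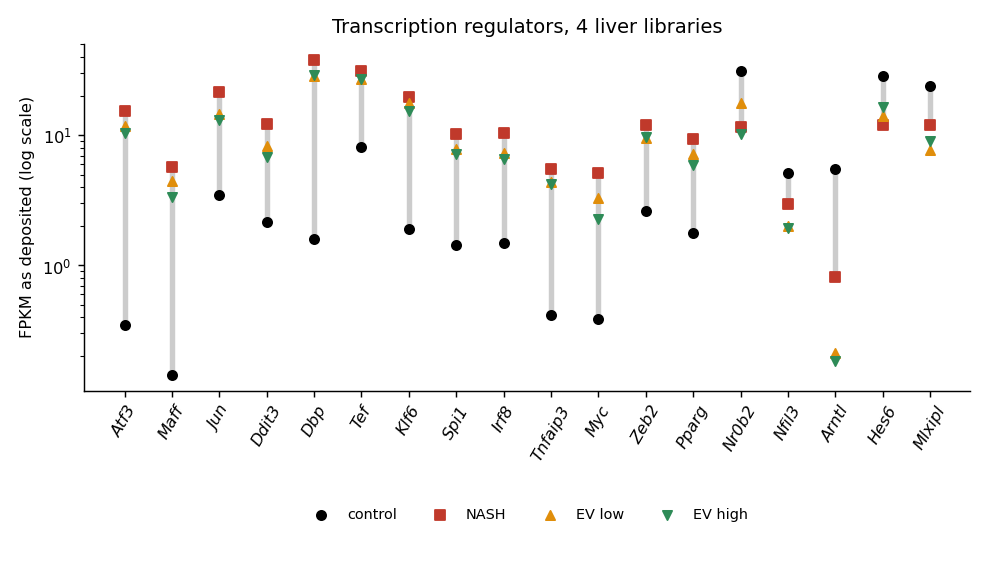
FPKM as deposited (log scale) of 18 regulators in the 4 liver libraries, 1 marker per library and a grey bar from control to NASH. Factors from Atf3 to Pparg stand lowest in the control library, while Nr0b2, Nfil3, Arntl, Hes6 and Mlxipl stand highest there.

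Several receptors and binding proteins of growth hormone and growth factor signalling were lower, and the ligands named below were higher or lower. Egfr, the receptor for epidermal growth factor and very abundant in normal liver, was at 137 FPKM in control, 29.8 in NASH, 38.8 in EV low and 45.9 in EV high (ratio -2.72). The control library was far the highest of the 4. The growth hormone receptor Ghr was at 115, 44.6, 54.7 and 75.1 FPKM (ratio -1.89), and Igfals, which stabilises circulating IGF-1, at 40.1, 15.4, 19.5 and 26 (-1.88). Igf1 stood at -1.01 (42.5 and 30.7 FPKM), Prlr, the prolactin receptor, at -1.93, and the sterol sensors Insig1 and Insig2 at -2.10 and -1.14. In all, 7 of 20 members of this list were lower (5 of 16 at 5 FPKM in both libraries) and 1 higher: Igfbp7, an IGF-binding protein of vessels and stellate cells, at 1.05. As deposited 5 of 20 were lower.

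Of 21 genes of the EGF, FGF, HGF and PDGF list, 6 were higher and 3 lower, and 1 and 3 of the 12 in the both-library set. The largest ratio was that of the ligand Fgf21, a fasting hormone (0.641, 32.1, 16.4 and 10.9 FPKM, ratio 3.78). Klb, the coreceptor that lets hepatocytes respond to FGF hormones, stood at -1.10 (13.2 and 8.69 FPKM), while Nrg4, a ligand of ErbB4, stood at 1.82 (1.19 and 10.3 FPKM). Csf1r, the growth factor receptor of macrophages, was at 12.8 FPKM in control and 56.2 in NASH (1.5). Of cytokine receptors, 8 of 20 were higher, 10 of 20 passing 5 FPKM in NASH only, and 1 lower; in the both-library set 1 of 10 was higher and 1 lower. The lower one was Lifr, the receptor for leukaemia inhibitory factor (60.6 and 23.7 FPKM, ratio -1.87). Il1rap, the shared subunit of IL-1 receptors, was counted with Toll-like receptors and stood at -1.92 (59.9 and 22.5 FPKM). Lepr, the leptin receptor, stood at 1.56 (0.549 and 5.69 FPKM) and Ccr2, of monocytes, at 2.24.

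In the p53 and DNA damage list, 6 of 18 were higher and none lower, with a median of 0.83 (9 of 18 passed in NASH only; 2 of the other 9 were higher). Cdkn1a, the cell cycle inhibitor p21, was at 0.715, 8.96, 5.75 and 4.72 FPKM in control, NASH, EV low and EV high (ratio 1.99). Phlda3, an inhibitor of AKT signalling, stood at 2.07, Gadd45b at 1.94, Btg2 at 1.92, Plk3 at 1.49 and Bax at 1.11. In the list of YAP and TAZ targets, Ccn2 stood at 2.18, the receptor kinase Axl at 2.28 and Ajuba at 1.21, with the coactivator Wwtr1 at 1.10 and Yap1 at 0.01 (4 of 15 higher, none lower, and none among the 6 at 5 FPKM in both libraries). No member of 10 in the Wnt and R-spondin list was called.

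Genes of the actin cytoskeleton were higher in large numbers, while families of the cell surface differed from one another. Of 48 genes of the actin cytoskeleton, 21 were higher and none lower, with a median of 0.91, and 10 of the 33 at 5 FPKM in both libraries were higher. As deposited 39 of 48 were higher. Capg, a barbed-end capping protein, was at 0.709, 19.2, 19.3 and 15.2 FPKM in control, NASH, EV low and EV high (ratio 3.01). Tagln2 (ratio 2.50), filamin A, encoded by Flna (4.47, 32.9, 25.5 and 24.7 FPKM, ratio 2.08), Cotl1 (2.03), Tpm1 (1.81) and Arpc1b, of the ARP2/3 complex (12.3 and 63.5 FPKM, ratio 1.73), followed. Coro1a (1.92), of leucocytes, is in the same list. Tubulins were not uniform: Tubb6 stood at 2.11 and Tuba4a at -1.98 (56.9 and 20.6 FPKM).

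Of 8 annexins, calcium-dependent membrane binders, 5 were higher and none lower (median 1.28), including 2 of the 4 at 5 FPKM in both libraries. Anxa2 was at 4.73 FPKM in control, 151 in NASH, 105 in EV low and 97.1 in EV high (ratio 4.17; chromosome 9, GRCm38.p6). Anxa5, used to mark dying cells, was at 22.4, 188, 158 and 155 FPKM (ratio 2.46). Anxa1 stood at 1.91 and Anxa3 at 1.52. Of S100 proteins, 6 of 10 were higher and 1 lower, but the 6 at 5 FPKM only in NASH supply the higher calls: among the 4 at 5 FPKM in both libraries none was higher, and their median was -0.86. S100a4 was at 0.835 and 10.8 FPKM (2.14) and S100a6 at 1.18 and 9.30 (1.69), while S100a1, of hepatocytes and muscle, was at 115 and 50.8 (-1.71). Galectins were higher in 3 of 6, with Lgals1 at 12.9 and 82.4 FPKM (2.03) and Lgals3 at 3.76. Of integrins 5 of 8 were higher, none lower, and 1 of the 3 in the both-library set, with the leucocyte subunit Itgb2 at 2.50. Junction proteins were level, with 0 of 22 higher and 1 lower (Gjb1, a gap junction protein, -1.49). Tetraspanins and claudins were higher in 5 of 19 and lower in 1, and 1 and 1 of the 14 in the both-library set. Of 5 kept genes of the Ly6 and uPAR list 3 were higher and 0 lower, and 1 of the 3 in the both-library set, whose median was -0.81. Ly6d (0.558 and 170 FPKM, ratio 6.22), a GPI-anchored protein, stood far above its relatives Ly6e (1.38) and Ly6a (1.10). The lowest of the 5 stood at -0.94.

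Proteoglycans and matrix crosslinkers were higher in 13 of 25 and lower in 1, Sdc2 (46.3 and 26.8 FPKM, ratio -1.32). Of the 13 at 5 FPKM in both libraries, 6 were higher. Lum was at 3.14, 25.8, 23.0 and 29.7 FPKM (ratio 2.14), Cd44, the hyaluronan receptor, at 1.30, 12.4, 11 and 10.6 (2.0), and the crosslinking enzyme Tgm2 at 22.4, 89.1, 69.6 and 64.4 (1.39). In each the control library was the lowest of the 4.

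Lysosomal genes were higher in part. Cathepsins and cystatins were higher in 4 of 13, all at 5 FPKM in both libraries: the elastinolytic Ctss (18.9, 143, 148 and 148 FPKM, ratio 2.31), the asparagine protease Lgmn (1.85), the inhibitor Cstb (1.55) and Ctsd (1.51). Of lysosomal hydrolases and activators, 6 of 39 were higher and none lower, with Grn, encoding progranulin, at 1.55 and Psap, encoding saposins, at 1.47 (98.1 and 402 FPKM). Of lysosomal membrane proteins 6 of 27 were higher, 12 of 27 passing in NASH only, and none of the 15 at 5 FPKM in both libraries was called. The autophagy list held no higher gene in 29 and 1 lower (Atg101, -1.49). Proteasome genes were mostly within 2-fold, with a median of -0.38 (0.17 as deposited). All 37 were at 5 FPKM in both libraries and 2 were lower, a smaller share than the 11.6% of that whole set. Those 2, Psma3 and Psmb3, stood at -1.71 and -1.12, and as deposited 1 member was lower and 1 higher. The E-box that TFEB and TFE3 recognise at lysosomal genes, TCACGTG searched on both strands, was in the promoter of 18 of 96 lysosomal genes (18.75%), against 4.44% of all protein-coding promoters. Of the 76 of these genes that were kept, the 17 with the E-box had a median ratio of 0.26 and the others 0.36.

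Immune receptors held many higher calls, most of them in genes that passed in NASH only, and in the both-library set several of these lists were balanced. In the list of Fc and immunoglobulin-like receptors, 15 of 18 were higher, and 14 of 18 passed only through the NASH library, while 2 of the 4 in the both-library set were higher. Sirpa, the receptor for the "do not eat" signal, was at 3.57, 40.9, 30.4 and 30.1 FPKM (ratio 2.64), and Tyrobp, an adaptor for several myeloid receptors, at 14.1, 82.7, 101 and 96.5 (1.92). In both the control library was the lowest. In the list of Ms4a, SLAM and leucocyte signalling proteins, 18 of 20 were higher, 18 of 20 having passed only through NASH, and 1 of the other 2 was higher. Among C-type lectins and scavenger receptors, 12 of 31 were higher and 5 lower, but 4 and 4 of the 19 in the both-library set. Clec7a, the beta-glucan receptor, was at 1.22, 43.4, 50.1 and 61.2 FPKM (ratio 3.77), while Mbl1, a plasma lectin of hepatocytes, was at 133, 58.6, 74.0 and 91.9 (-1.73). Of genes of the Toll-like receptor and inflammasome list, 10 of 24 were higher and 3 lower, and 3 and 3 of the 11 in the both-library set, with Cd14 at 2.64 and Nlrp6 at -1.31. Kupffer and recruited macrophage markers were higher beside these lists, in 8 of 10 and 8 of 9 kept members. Of these kept members 2 and 5 passed in NASH only, and in the both-library set 7 of 8 and 3 of 4 were higher.

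**Figure D3:**
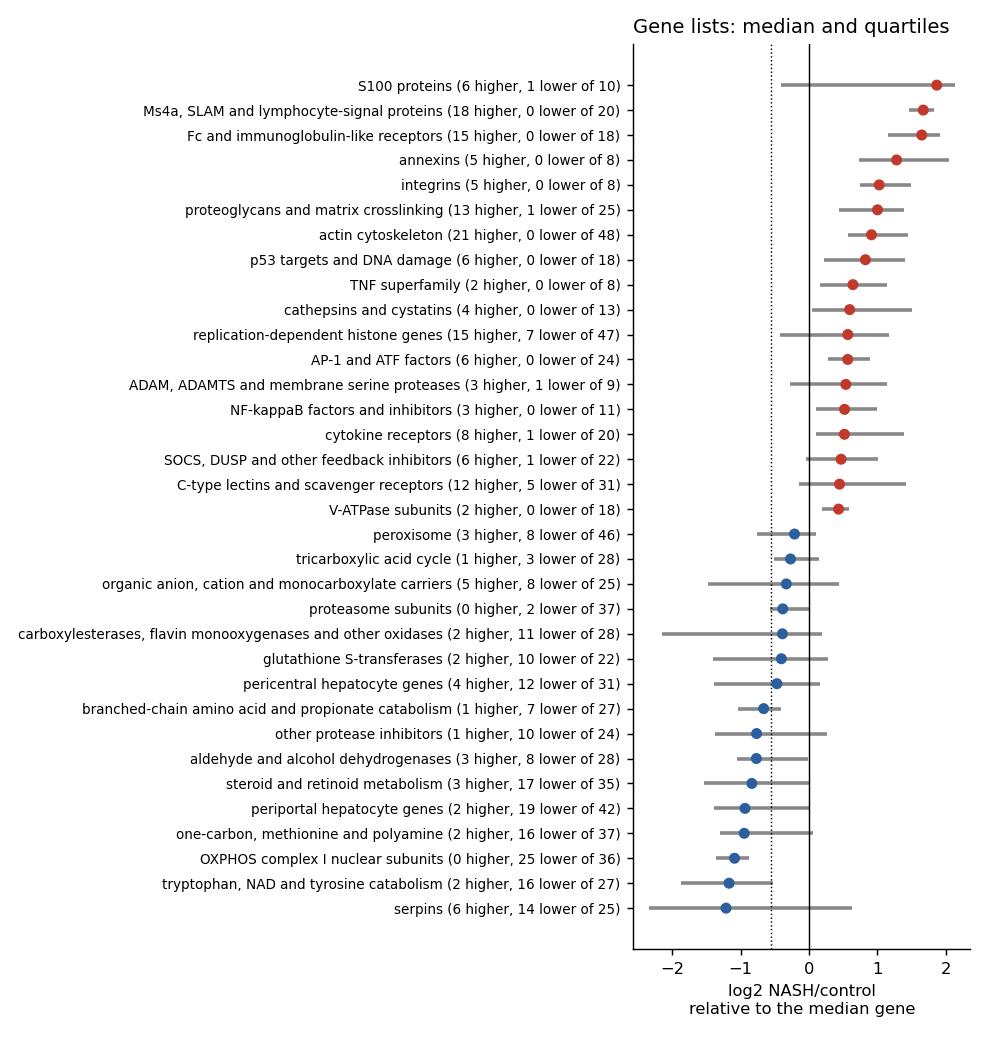
Median (dot) and quartiles (bar) of the log2 NASH over control ratio, relative to the median gene, for the 16 lowest and 18 highest lists with at least 8 kept genes, cell type markers left out. The dotted line marks equal FPKM as deposited: Ms4a and SLAM genes, Fc receptors, annexins and actin genes lie to the right of 0, and serpins, tryptophan catabolism, complex I and one-carbon genes to the left.

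Protease inhibitors made up one of the lowest classes. Of 25 serpins 14 were lower and 6 higher (median -1.21), and of the 18 in the both-library set 12 were lower and 2 higher. As deposited 9 of 25 were lower and 8 higher. The alpha-1-antitrypsin copies were lower in 5 of 5, from -4.94 to -1.91, and their summed level was 16326 FPKM in control, 3583 in NASH, 4039 in EV low and 4856 in EV high. The control library held over 4 times as much as the NASH library. They are near-identical copies, so the division among them is uncertain and the sum is the firmer value. Serpina3k, of the kallikrein-binding group, was at 7065, 1181, 1684 and 2339 FPKM (ratio -3.13). In the other direction stood Serpinb6b (0.995 and 12.7 FPKM, ratio 2.23). Other inhibitors were lower in 10 of 24 (5 as deposited) and higher in 1, the antileukoprotease Slpi (0.660, 15.8, 11.2 and 8.01 FPKM, ratio 2.79). Mug1, a broad-range inhibitor of the alpha-2-macroglobulin type, was at 1029, 406, 441 and 507 FPKM (-1.89).

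Enzymes of amino acid and one-carbon metabolism were lower in large part. The share called lower rose with level, and these are abundant genes: the 44 listed one-carbon genes summed to 5021 FPKM in control. Over all protein-coding genes kept, 3.24% were lower at a mean level of 5 to 10 FPKM. At 100 to 300 FPKM 31.3% were lower, and above 300 FPKM 39.3%. Counts in this and other lists of abundant enzymes stand against those shares, and the part of level was not tested. Of 27 genes of tryptophan, NAD and tyrosine catabolism, 16 were lower and 2 higher (median -1.17), and 9 of 27 were lower as deposited. Haao, which makes quinolinic acid on the route to NAD, was at 183, 52.4, 62.7 and 73.9 FPKM in control, NASH, EV low and EV high (ratio -2.34). Afmid stood at -2.28, Kynu at -1.97 and Hpd, of tyrosine breakdown, at -1.86 (1031 and 417 FPKM). Of 37 one-carbon, methionine and polyamine genes, 16 were lower and 2 higher (median -0.95), 5 as deposited. Gnmt, the glycine N-methyltransferase that disposes of excess methyl groups, was at 1062, 169, 224 and 263 FPKM (ratio -3.19). Cbs, of transsulphuration, stood at -1.90 and Cth at -1.40, while Mat2a, the S-adenosylmethionine synthetase of growing cells, was at 13.7, 66.5, 57.2 and 52.3 FPKM (1.64). Gnmt and Mat2a stood on opposite sides of the control level in all 3 other libraries. Branched-chain catabolism was lower in 7 of 27 (2 as deposited) and higher in 1, Oxct1, the ketone-body-using enzyme (1.05 and 5.59 FPKM, ratio 1.13).

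Detoxification enzymes were lower in part, with a few exceptions of large size. Of 22 glutathione S-transferases 10 were lower and 2 higher, and as deposited 3 were lower and 5 higher. In the both-library set 10 of 21 were lower and 1 higher. The higher ones were Gsta1 (2.71, 82.5, 93.0 and 98.5 FPKM, ratio 3.94) and Gstm3 (28.4, 226, 192 and 181, ratio 2.40), while the abundant Gstp1 was at 2048, 643, 581 and 567 (-2.22) and Gsta3 at 1283, 456, 688 and 742 (-2.04). The EV libraries lay on the NASH side in all 4 genes. Carboxylesterases (symbol stem Ces) had a median of -2.0 in 12 kept genes, 8 lower and none higher, 7 lower as deposited. Ces2a was at 232, 19.4, 28.9 and 39.6 FPKM (-4.06). UDP-glucuronosyltransferases were lower in 9 of 14, 4 as deposited. Of steroid and retinoid genes, 17 of 35 were lower (9 as deposited) and 3 higher: Hsd11b1, which regenerates active glucocorticoid, was at 445, 112, 170 and 198 FPKM (-2.53), and Rdh9 at 20.5, 121, 120 and 130 (1.96).

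Transport proteins split as well. Of 25 carriers of organic anions, cations and monocarboxylates, 8 were lower and 5 higher, and 4 and 1 of the 16 in the both-library set. Slc10a1, the sodium-taurocholate cotransporter NTCP, was at 165, 33.8, 47.9 and 51.5 FPKM (-2.80), and Slc16a5 was at 0.806, 16.5, 18.4 and 17.4 (2.73). In ABC transporters, 5 of 31 were higher and 3 lower, but 1 and 2 of the 22 in the both-library set, near the share of that whole set. The phospholipid floppase Abcb4 (38.6, 149, 130 and 125 FPKM, ratio 1.37) was higher, the bile salt pump Abcb11 (144, 98.9, 94.5 and 93.6, ratio -1.09) lower. Slc30a10, a manganese exporter, was at 9.33, 0.499, 0.484 and 0.353 FPKM (-3.34). The uncoupling protein Ucp2 was at 3.06, 29.2, 18.5 and 14.6 FPKM (2.34); in normal liver it is mainly a gene of non-parenchymal cells. Alas1, the first enzyme of haem synthesis, was at 39.7, 351, 317 and 356 FPKM (2.56), while Alas2, the erythroid isoform, was at 42.6, 11.3, 12.5 and 16.7 (-2.37). The 5 erythroid markers kept were all lower (1 as deposited), and the list summed to 960 FPKM in control and 562 in NASH; the part of blood content in the Alas2 value was not tested.

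Respiratory chain genes were lower in sum, and how many pass 2-fold depends on the centring. Of 36 nuclear complex I subunits listed, 25 were lower and none higher (median -1.09). As deposited the median was -0.54 and 0 of 36 passed 2-fold. The summed FPKM of the 46 nuclear genes with an Nduf stem was 4155 in control, 2784 in NASH, 3139 in EV low and 3332 in EV high, so the control library held 1.49 times as much as the NASH library. Subunits of complex III (1.46 times), complex IV (1.44 times) and the ATP synthase (1.35 times) also summed higher in control. Mitochondrial ribosomal proteins summed to 1647 and 1593 FPKM, near equal, and cytosolic ribosomal proteins to 19943 and 21182. Within these 46 genes the ratios ran from -1.49 for Ndufb3 and Ndufa6 to -0.18 at the highest. Ndufb1 is not among them, since the deposited gene types label it a lncRNA. It stood lower, at -1.54 (166 and 83.0 FPKM). Transcript length moved with these ratios: genes of the Nduf stem had a median transcript length of 772.5 bases. Over all protein-coding genes the median ratio was -0.24 up to 750 bases and 0.16 above 3000 bases. In genes with a mean level above 50 FPKM it was -0.75 up to 750 bases, -0.52 from 750 to 1500 bases and -0.14 above 3000 bases. The median ratio also fell with level, from 0.07 at 5 to 10 FPKM to -0.80 above 300 FPKM. How far length, level or fragmentation of RNA bear on the complex I values was not tested.

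**Figure D4:**
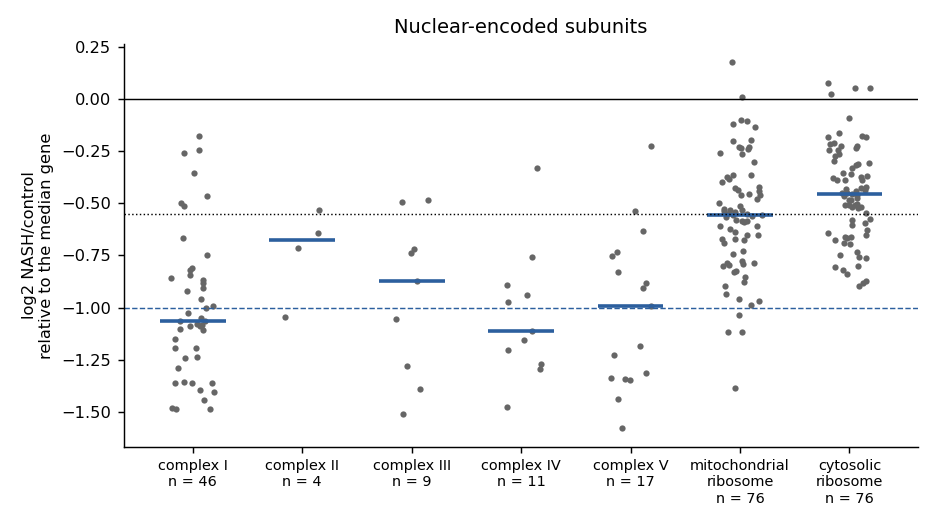
Log2 NASH over control ratio, relative to the median gene, of each nuclear-encoded subunit labelled protein-coding (grey points) with the median of the group (blue line). The dashed line marks 2-fold lower and the dotted line equal FPKM: the medians of complexes I to V lie below the dotted line, while those of both ribosomes lie on or just above it.

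Long non-coding RNAs were often lower. Of 95 lncRNA genes kept, 47 were lower (49.5%) and 5 higher (5.26%), with a median of -1.0, against 614 lower and 675 higher of 7075 protein-coding genes. The class is that of the deposited gene types, which are not free of error. It counts the complex I gene Ndufb1 (-1.54) among the lower lncRNAs, in the both-library set as well. Of the 47, 32 were under 5 FPKM in NASH and so passed only through control, where the rule favours lower ratios. In the both-library set 15 of 44 lncRNAs were lower and 1 higher, against 539 lower and 186 higher of 4837 protein-coding genes. As deposited 32 of the 95 were lower and 11 higher. In a list of 20 better-known lncRNAs 4 were lower and 0 higher, with a median of -0.19. Hectd2os was at 22.9, 1.71, 3.32 and 4.30 FPKM in control, NASH, EV low and EV high (ratio -3.69) and BC024386 at 78.4, 19.9, 24.4 and 26.4 (-2.48). The control library was highest in both. Hnf4aos, which overlaps Hnf4a, was at 5.25 and 1.24 FPKM (-2.03), while Hnf4a itself stood at -0.22. The kit keeps strand, but the strand setting of the counting is not given in the sources used here, so overlapping pairs of this kind remain uncertain. The widely expressed Malat1 and Neat1 stood at 0.36 and -0.66. Of 43 snoRNA genes 5 were higher (11.6%) and 2 lower (4.65%), against 9.33% and 9.72% of all genes kept. As deposited 18 of them were higher and 1 lower. Of 13 mitochondrial tRNA genes 12 were lower, and 5 as deposited.

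Some genes that lie side by side moved the same way. Genes not kept were skipped in finding neighbours, and 697 higher and 726 lower calls were made in all. In runs of 5 or more kept genes that neighbour each other on a chromosome and were 2-fold apart in one direction, 12 runs held 99 genes, 9 lower and 3 higher. The largest was the Mup cluster of chromosome 4 (60066469 to 62150841, GRCm38.p6), with 26 genes at a median of -6.49 and 63841 FPKM in control against 6162 in NASH. A run of 9 genes on chromosome 12 (103728156 to 104086920) held the Serpina1 copies (median -2.71), and a run of 9 on chromosome 15 held the Cyp2d cluster with the neighbouring complex I gene Ndufa6. On the mitochondrial genome 13 neighbours from TrnW to ND4L were lower (13853 and 8517 FPKM), of which 1 stayed 2-fold lower as deposited. Higher runs were 6 histone genes on chromosome 13 (21750145 to 21801561), 5 S100 genes on chromosome 3, and Axl with Cyp2b9, Cyp2a4 and Cyp2a5 on chromosome 7 (25756500 to 26952552; 130 FPKM in control, 923 in NASH, 1224 in EV low and 1204 in EV high). The S100 run summed to 6.31 FPKM in control and 86.8 in NASH. Its genes passed through NASH only, so none could be called lower. Many of the nuclear runs hold near-identical copies, among which reads may be shared, so the count of genes is uncertain and the summed levels are the firmer value.

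Replication-dependent histone genes, which are transcribed in S phase, were called in both directions. Of 47 kept, 15 were higher and 7 lower, with a median of 0.57, but 20 of the 47 passed in NASH only. In the both-library set 2 of 27 were higher and 7 lower, with a median of -0.027. All 15 higher ones were among the 29 with under 10 FPKM in control, and all 7 lower ones were among the 11 at 30 FPKM or more. The control level is also the denominator of the ratio, so this split is in part built in by the rule. H1f5 was at 0.663, 11.2, 9.30 and 7.83 FPKM in control, NASH, EV low and EV high (ratio 2.32), and H4c3 at 185, 84.9, 97.5 and 97.5 (-1.67). The summed level was 1345 FPKM in control and 1419 in NASH. In a total RNA library such non-polyadenylated transcripts are kept. Since the genes are near-identical, how the reads divide among them is uncertain.

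Promoters of genes that stayed level were richer in CpG than those of genes that differed in either direction. The window of each gene from 250 bases before to 50 after the annotated start, from RefSeq on GRCm38.p6, was available for 5742 of 7075 protein-coding genes kept (81.2%). The CpG ratio is the count of CG over that expected from the C and G content of the window. Its median was 0.60 for genes 2-fold higher, 0.51 for genes 2-fold lower and 0.81 for the rest. Over all kept genes it was 0.78, and over all protein-coding promoters of the genome 0.58. A ratio under 0.4 was found in 36.9% of the higher genes, 41.6% of the lower genes and 10.4% of the rest. At 4-fold it was found in 55.3% of 114 higher and 71.9% of 96 lower promoters. Families of near-identical copies, such as Mup with 20 of 20 kept genes lower, enter gene by gene where a window was available. Their promoters are not independent, and how far they move these shares was not tested. Over the 5742 promoters of kept genes the share under 0.4 was 15.7%, and over all 17519 protein-coding promoters 39.0%. Against the kept genes it is the 2-fold genes that stand apart, and against the whole genome the level genes. A low ratio was shared by both directions. In genes at 5 FPKM or more in both libraries, 37.0% of those with a ratio up to 0.2 were lower and 8.79% higher, against 4.64% and 2.68% of those above 1. The TATA motif TATAAA, searched on both strands, was in 14.6% of higher, 14.1% of lower and 7.17% of other promoters. It was in 8.48% of promoters of all kept genes and 13.3% of all protein-coding promoters. The contrast is shown here by the 100 bases before the start of 3 CpG-poor genes, 1 far higher and 2 far lower, and 2 CpG-rich genes, 1 induced and 1 level. Capitals mark each CG.

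Lcn2 (higher, 7.27, chromosome 2, 32387740 to 32387839, minus strand): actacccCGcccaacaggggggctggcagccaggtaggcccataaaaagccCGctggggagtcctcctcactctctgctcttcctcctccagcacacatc
Mup3 (lower, -6.48, chromosome 4, 62087318 to 62087417, minus strand): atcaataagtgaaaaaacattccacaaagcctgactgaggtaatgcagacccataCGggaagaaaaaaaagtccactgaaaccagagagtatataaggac
Serpina1e (lower, -4.94, chromosome 12, 103956898 to 103956997, minus strand): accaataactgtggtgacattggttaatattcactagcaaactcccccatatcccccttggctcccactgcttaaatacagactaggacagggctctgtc
Atf3 (higher, 3.04, chromosome 1, 191183334 to 191183433, minus strand): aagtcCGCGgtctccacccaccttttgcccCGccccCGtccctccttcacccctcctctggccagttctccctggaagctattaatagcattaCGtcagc
Psmd1 (level, 0.06, chromosome 1, 86064519 to 86064618, plus strand): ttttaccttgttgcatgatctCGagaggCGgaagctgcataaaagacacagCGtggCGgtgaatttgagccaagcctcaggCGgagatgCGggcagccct

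Serpina1e has 0 CG in the 100 bases shown, Mup3 has 1 and Lcn2 has 2, against 5 in Atf3 and 6 in Psmd1, a proteasome subunit. Over the whole window the ratio was 0.17, 0.16, 0.13, 0.87 and 0.84 in that order. As background, CpG-poor promoters are typical of tissue-specific genes and CpG-rich ones of broadly expressed genes. Breadth of expression was not measured here, and its part in the result was not tested.

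**Figure D5:**
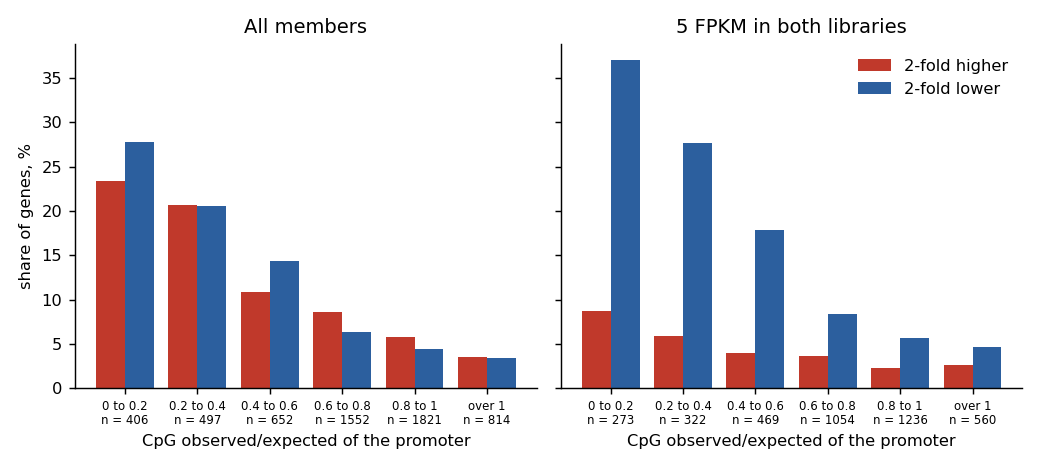
Share of genes (%) 2-fold higher (red) and 2-fold lower (blue) in NASH in 6 classes of promoter CpG ratio, for all kept genes (left) and those at 5 FPKM in both libraries (right); bars start at 0 and n is given under each class. In all kept genes the share falls from 23.4% to 3.56% for higher and from 27.8% to 3.44% for lower genes as the CpG ratio rises.

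AP-1 sites were looked for because the AP-1 and ATF list held the most higher factors by count, 6 of 24. By share it did not lead, with 3 of 10 Kruppel-like and SP factors and 3 of 11 NF-kappaB genes higher. None of its 11 genes in the both-library set was called. The 7-base site TGACTCA, and its complement TGAGTCA, was in 5.41% of promoters of higher genes, 5.03% of lower genes and 3.39% of the rest. The share was 3.73% over all kept genes and 4.59% over all protein-coding promoters. At 4-fold the shares were 7.89% of higher and 8.33% of lower promoters, so the site did not sort the directions. Near-identical copies were counted gene by gene here too. The 9 promoters of genes 4-fold higher that hold it belong to Anxa2, Cd68, Cgref1, Gpnmb, Il1rn, Mt2, S100a11, Srxn1 and 2010003K11Rik. A window of 29 bases is shown for 4 of them, chosen to cover a membrane binder, a metallothionein, a redox enzyme and a macrophage gene, with the site in capitals and its first base counted from the start.

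Anxa2 (chromosome 9, 69453577 to 69453605, plus strand, at -95): tccaagttggaTGAGTCAcccagcagggt
Mt2 (chromosome 8, 94172528 to 94172556, plus strand, at -79): gaaagggggtgTGACTCAgcgcggggggt
Srxn1 (chromosome 2, 152105411 to 152105439, plus strand, at -102): ctcggagggccTGAGTCAccacgctgtgc
Cd68 (chromosome 11, 69666302 to 69666330, minus strand, at -149): taagttccgtgTGAGTCAgctgcctcatt

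Mt2, a metal-binding protein of the acute phase, was at 0.673 FPKM in control, 26.9 in NASH, 16.9 in EV low and 22.5 in EV high (ratio 3.51). Srxn1, which repairs oxidised peroxiredoxins, was at 8.30, 73.9, 46.8 and 42.1 FPKM (ratio 2.46). In both the control library was the lowest. A match of this kind describes the letters of the window and is not evidence of binding.

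Colon of the same groups gave the same contrast in a second tissue, with the ratio taken in the same way (median gene 0.06). Of 6308 genes kept in liver that also reached 5 FPKM in 1 of the 2 colon libraries, 470 were higher and 411 lower in liver, and 73 and 98 in colon. Higher in both were 25 genes (5.32% of those higher in liver, 34.2% of those higher in colon), and lower in both 21 (5.11% and 21.4%). Higher in liver and lower in colon were 32 genes, and the reverse 6. Of these 6308 genes 1.16% were higher and 1.55% lower in colon, and of all 9170 genes tested there 2.32% and 2.66%.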

How the data were processed

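The deposited table gives FPKM for 45777 genes in 8 libraries, values made by the authors. Per the labels, RNA extraction used TRIzol plus RNeasy Plus columns, and the library kit was a strand-keeping total RNA kit (TruSeq, Gold version). Trimmomatic 0.38, HISAT2, StringTie and mm10 are named per the submitters' processing notes. Order, settings, other versions and read depth were not given in the sources used here, so no counting error could be given. Groups were taken from sample titles, and 45679 gene identifiers were matched to GRCm38.p6 symbols. Genes at 5 FPKM or more in liver control or liver NASH were compared by log2((FPKM + 1)/(FPKM + 1)), less the median over 12866 genes at 1 FPKM or more in a liver library. The added 1 FPKM understates ratios of low genes. Genes 2-fold from the median gene were counted in 96 gene lists and in families by symbol stem of 8 or more genes. The comparison's members and lists were chosen with earlier results of these data known, and the neighbour runs and the split by length and level were added after values were seen. Named genes were the 15 highest and 15 lowest ratios (13 of the latter are Mup genes), factors 2-fold apart, and for each list described mainly the 4 largest ratios. Others, among them level factors such as Hnf4a, and Neat1 and Malat1, were chosen after their values were seen. A count of zinc fingers per protein was planned and not made, since no protein table was used here. Alternatives were a pseudocount of 0.1 or 5 FPKM, other centring, other filters and protein-coding genes only. A few genes of the lists are not reported here. The code was tested on simulated data. Python 3.11.15, numpy 2.4.6, pandas 2.3.3 and matplotlib were used.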

Additional observations from a re-analysis of the deposited data

Results flagged for a closer look

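In colon the same contrast went the other way for a few genes that led the liver comparison; each rests on 1 library a side, and the difference between tissues was not tested. Car3, a carbonic anhydrase, stood at -3.67 in liver (1312 FPKM in control, 150 in NASH) and at 1.22 in colon (18.6 and 46.8 FPKM). Inmt, which methylates indole amines, stood at -3.66 in liver (773 and 89.2 FPKM) and at 2.38 in colon (2.57 and 18.4 FPKM). D17H6S56E-5 stood at 4.82 in liver (0.235 and 50.3 FPKM) and at -1.11 in colon (35.2 and 16.5 FPKM).

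Of 47 replication-dependent histone genes, 15 were higher and 7 lower in liver. In liver 20 of the 47 passed 5 FPKM in NASH only, and 2 of 27 in the both-library set were higher. In colon 37 of 47 were lower and 0 higher, with a median of -1.28. The 15 higher in liver were all among those lower in colon, but with most of the list lower there, this overlap is not particular to them. H1f5 was at 137 FPKM in colon control and 51.6 in colon NASH, and H3c3 at 173 and 62.4.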

How the results depend on the processing

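Counts of genes 2-fold apart depended on the scale. Against 697 higher and 726 lower, a pseudocount of 5 FPKM gave 395 and 396, the deposited scale 1668 and 316 (84.1% higher, against 49.0%), and median-of-ratios scaling 627 and 962 (39.5% higher). A filter at 5 FPKM in both libraries gave 193 higher and 591 lower, and no filter 1095 lower. Of 782 list medians over 9 alternatives, 763 moved by less than 1.5-fold. Other centring moved 0 of 261 by more, since the shift of 0.55 is itself below that bound; counts of members do change, as given beside the lists where it matters most. With a filter at 5 FPKM in both libraries the medians of S100 proteins (-0.86) and Ly6 proteins (-0.81) ended on the other side, as they did with no filter (-0.13 and -0.53). That filter also gave -0.63 for EGF and FGF family genes, -0.57 for ADAM proteases, 0.58 for Fc receptors, -0.027 for histones and 1.45 for recruited macrophage markers. No filter gave 0.69 for annexins, 0.29 for galectins, 0.40 for integrins, 0.93 for Fc receptors and -0.29 for imprinted genes. Here the genes entering the median differ by construction. A pseudocount of 0.1 FPKM gave 2.51 for S100 proteins and 3.47 for recruited macrophage markers, and 5 FPKM gave 0.82, 1.30 and, for Ms4a and SLAM genes, 0.96. Of 364 values of leading genes, 39 moved, all with the pseudocount, and 0 changed sign. The depth is unknown, so low FPKM carry an unknown error. No paired analysis was possible because each group has 1 library, and leaving out a replicate was not possible for the same reason.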

Other observations

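Zonation genes were low at both ends of the liver lobule. Of 42 periportal genes kept, 19 were lower and 2 higher (median -0.93), and of 31 pericentral genes 12 were lower and 4 higher (median -0.47). In genes at 5 FPKM in both libraries 18 of 40 and 10 of 28 were lower, and as deposited 9 of 42 and 7 of 31. Hal, of histidine breakdown, was at 117, 24.1, 42.1 and 45.2 FPKM in control, NASH, EV low and EV high (ratio -2.79), and Cyp2f2 at 269, 50.6, 81.2 and 97.3 (-2.94). The 2 higher periportal genes were Apoa4 (5.5) and Mfsd2a, a lysophospholipid carrier (4.28, 69.0, 59.0 and 42.8 FPKM, ratio 3.18). Among pericentral genes, Cyp2a5 was at 120, 746, 1024 and 1062 FPKM (2.08) and Avpr1a, a vasopressin receptor, at 11.9, 3.48, 3.51 and 3.81 (-2.08).

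Sphingolipid and peroxisomal genes were called in both directions. In the whole both-library set 3.8% of genes were higher and 11.6% lower. Of 30 sphingolipid genes 6 were higher and 2 lower, with 12 of 30 passing 5 FPKM in NASH only. Of the 18 at 5 FPKM in both libraries 1 was higher and 2 lower, near the share of that whole set. St3gal5, which makes the ganglioside GM3, was at 9.49, 42.6, 40.4 and 37.2 FPKM (1.5). S1pr1, an endothelial receptor, was at 19.1, 7.41, 8.27 and 8.95 (-1.81). Of 46 peroxisomal genes 8 were lower and 3 higher, as were 8 and 3 of the 40 at 5 FPKM in both libraries. Among protein-coding genes kept, 24.4% were lower at a mean level of 50 to 100 FPKM and 31.3% at 100 to 300. The part of level in the peroxisomal count was not tested. Nudt7, a coenzyme A hydrolase, was at 369, 50.3, 78.0 and 118 FPKM (-3.40) and Hacl1, of phytanic acid breakdown, at 137, 24.2, 36.7 and 47.1 (-3.0), while Ehhadh was at 74.1, 275, 195 and 216 (1.32).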
